A study of Mus musculus with 24 samples.

Results

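The 30 genes described here code for the nuclear pore complex and a Ran cofactor that works at it, out of 55487 distinct Ensembl genes counted in RNA-seq libraries of mouse blood progenitors. They were taken by symbol from a list of nucleoporin genes, and all 30 were found and passed the filter on low counts that left 23059 genes for testing. The set was chosen on a measured value of 1 member: Nup205 was higher in MLL::ENL cells than in wild type at postnatal day 28 and not at day 0, and the other 29 genes were added to ask whether they follow it. Nup205 is therefore described without a test throughout, and every count of called pore genes covers the other 29.

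Nuclear pores are the gates of the nuclear envelope, built from many copies of a limited set of proteins, the nucleoporins, around a central channel. The outer ring (the Y complex) and the inner ring form the scaffold, membrane nucleoporins anchor it, channel nucleoporins with phenylalanine-glycine repeats form the barrier, and filaments on the cytoplasmic face and a basket on the nuclear face handle cargo and messenger RNA. Import and export receptors carry cargo through the channel, and the small GTPase Ran gives the direction. Pores are added as the nucleus grows and are taken apart and rebuilt at each division of a vertebrate cell. NUP98 and NUP214 are also known as partners of leukaemia fusion genes.

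All 24 libraries were of LSK cells (Lineage-negative, Sca-1-positive, KIT-positive) by the labels, while the design text speaks of Lineage-KIT+ progenitors, and there were 4 libraries in each of 6 groups. At day 0 (P0) the cells came from liver, in wild-type mice (P0 WT) and in mice whose Tet-off human MLL::ENL transgene (ME) had been switched on at E10.5 (P0 ME). Cells of day 28 (P28) came from bone marrow, in wild-type mice (P28 WT), in mice with ME induced at E10.5, in mice with ME induced at P0, and in a further group, named RLT Vav Txp, whose transgene was also switched on at E10.5. The labels do not expand that name, and they do not give the cell type in which the transgene is driven, the strain or a batch. Each age came from its own tissue, so age and tissue cannot be told apart. The design text counts 4 biological replicates without naming animals, so the p-values measure the spread between these libraries.

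Library totals ran from 31233688 to 89774511 counts. Levels below are CPM, the counts scaled to library size with TMM factors, a gene is called when its edgeR Benjamini-Hochberg adjusted p over the 23059 genes is under 0.05, and differences are log2 fold changes. Several libraries stood apart before any comparison. The summed level of 10 macrophage markers was 1144 to 1622 CPM in the 6 P0 libraries numbered 2 to 4 and 126 to 135 CPM in the 2 numbered 1, and 9 erythroid markers summed to 5362 to 17850 CPM against 274 to 662 CPM. The 9 neutrophil markers summed to 11440 to 38180 CPM against 839 to 900 CPM. The 12 markers of the LSK population summed to 2721 to 3888 CPM in the former and 5399 to 5816 CPM in the latter. The RLT Vav Txp libraries held 758 to 3249 CPM of macrophage markers against 81.8 to 114 CPM in P28 WT, and 2639 to 3660 CPM of LSK markers against 5058 to 5635 CPM. No LSK, macrophage or erythroid marker was at 0 in every library of a group. Library 4 of P0 WT read long genes at a low level: its log2 deviation from the mean of all libraries fell by 0.54 for each doubling of transcript length, where the other 23 libraries lay between -0.22 and 0.28. In bulk RNA, fewer cells of a type and less RNA per cell cannot be told apart.

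Per kilobase of exon, the pore genes spanned a wide range of levels in P28 WT. Ranbp1, the soluble cofactor that helps Ran give up its GTP, was the highest at 210.0 ± 26.8 CPM per kb (SD, n = 4). Nup62, a channel nucleoporin, followed at 54.5 ± 8.96, ahead of Rae1 at 48.8 ± 5.29, Nup85 at 41.7 ± 1.48 and Sec13 at 41.0 ± 5.04 CPM per kb, and neither Nup62 and Rae1 nor Nup85 and Sec13 differed beyond their spread. The median of the 30 genes was 14.4 CPM per kb. Ahctf1 (ELYS, which starts pore assembly on chromatin) was the lowest at 3.92 ± 0.70 CPM per kb, beside Nup98 at 4.11 ± 0.73. Nup155 at 4.32 ± 0.41 and Nup214 at 4.41 ± 1.07 lay within that spread. The length merges all annotated exons, 15116 bases in Ahctf1 against 8506 in its longest transcript, so another length could change the order. By this length Ranbp1 was the highest and Ahctf1 or Nup98 the lowest in each of the 6 groups. Nup62 was next to the top in 5 of them, and in the RLT Vav Txp group Rae1 stood there.

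Promoters of 4 pore genes are shown because the results turn on them: Nup205, on which the set was proposed, Nup93 and Nup50, the members with the lowest adjusted p at P28, and Nup37, an outer-ring gene that did not rise. The stretches are from RefSeq on GRCm38.p6, plus strand, and end at the base before the GENCODE start of the gene, at chr6:35177366-35177420, chr8:94214414-94214563, chr15:84923261-84923410 and chr10:88146842-88146991 in that order. Capitals mark matches on either strand to the E-box CACGTG, to the CCAAT box, to an ETS-type motif CCGGAAG, to an NRF1-type motif CGCATGCG, to the GC box GGGCGG or to a YY1-type motif AAGATGG, and the run of capitals early in the Nup93 stretch holds 2 overlapping matches to GGGCGG on the minus strand. The RefSeq start of Nup205 lies downstream of its stretch, at 35177616, and the window around that start, counted below, holds matches to GGGCGG and AAGATGG that the 55 bases shown do not.
Nup205: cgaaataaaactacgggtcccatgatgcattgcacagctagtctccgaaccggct
Nup93: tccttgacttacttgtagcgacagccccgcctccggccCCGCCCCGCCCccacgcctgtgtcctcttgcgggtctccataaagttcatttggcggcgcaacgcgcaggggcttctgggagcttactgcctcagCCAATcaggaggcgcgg
Nup50: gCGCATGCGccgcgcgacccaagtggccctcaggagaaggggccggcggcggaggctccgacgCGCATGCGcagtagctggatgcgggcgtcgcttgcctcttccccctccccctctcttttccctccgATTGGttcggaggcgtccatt
Nup37: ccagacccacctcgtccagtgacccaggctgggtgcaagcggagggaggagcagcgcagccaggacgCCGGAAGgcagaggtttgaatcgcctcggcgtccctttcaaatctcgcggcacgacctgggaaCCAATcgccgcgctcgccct

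Over windows from 250 bases before to 50 bases after the start, 26 of the 30 pore genes had a promoter in the table, all but Nup35, Nup43, Nup85 and Seh1l. The ETS-type motif CCGGAAG was in 8 of the 26 (30.8%), in 9.12% of 27025 promoters and in 21.0% of the 7933 promoters of expressed genes. The NRF1-type motif CGCATGCG was in 3 (Nup107, Nup50 and Nup62; 11.5%), against 1.91% of all promoters and 4.45% of expressed ones. The E-box CACGTG was in 4 (Nup188, Nup54, Nup93 and Ranbp2; 15.4%), against 7.24% and 10.9%. The YY1-type motif AAGATGG was also in 4 (Nup188, Nup205, Nup50 and Nup88; 15.4%), against 6.48% and 7.92%. The GC box GGGCGG was in 18, Nup205 among them (69.2%), against 35.9% and 66.7%, and CCAAT in 10 (38.5%), against 37.9% and 39.7%. Matches are a description of these letters, not of binding.

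E10.5-induced ME against WT at P28 was a contrast that chose Nup205, so the values of the other genes are given as a description. Of the other 29 genes 19 rose and 0 fell, where 7.82% of all genes tested were called higher and 4.44% lower, and nothing is read from that contrast because the set came from it. Their median log2 fold change was 0.82, against -0.10 for all genes tested. It was 0.19 for the 10245 expressed genes, those with a mean log2 CPM over 3. The 30 genes together summed to 2781 to 3066 CPM in P28 WT and to 4042 to 4936 CPM in E10.5-induced ME. The 19 were spread over every structural part of the pore: 2 of 4 inner-ring genes, 5 of 9 outer-ring genes, 3 of 3 channel genes, 1 of 3 membrane genes, 5 of 6 genes of the cytoplasmic side and 3 of 3 basket genes.

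Nup205 (ENSMUSG00000038759, chr6:35177421-35247596, plus strand), a large inner-ring scaffold protein, read 79.7, 52.1, 48.9 and 76.2 CPM in P28 WT and 201, 253, 206 and 155 CPM in E10.5-induced ME. The groups did not overlap, and the log2 fold change was 1.67 (SE 0.33), given as a description. Its inner-ring partner Nup93 (ENSMUSG00000032939, chr8:94214564-94317227), the linker that holds the ring together, read 48.7, 56.2, 59.4 and 58.9 CPM in P28 WT and 157, 164, 121 and 108.5 CPM in E10.5-induced ME. Nup93 rose by 1.30 (SE 0.17, edgeR adjusted p = 0.000163), with every ME library above every WT library. Nup155, which ties the inner ring to the membrane, rose by 1.08 (SE 0.27, edgeR adjusted p = 0.0106). Nup188, a scaffold relative of Nup205, had a log2 fold change of 1.06 with an SE of 0.43 and was not called (edgeR adjusted p = 0.11). Nup35 was at -0.01 (SE 0.30).

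In the outer ring, Nup107 (ENSMUSG00000052798, chr10:117750621-117792705), a stem subunit of the Y complex, read 85.6, 63.7, 64.8 and 80.4 CPM in P28 WT and 147, 159, 134 and 143 CPM in E10.5-induced ME. The groups did not overlap, and Nup107 rose by 0.99 (SE 0.18, edgeR adjusted p = 0.00226). Nup160 rose by 1.20, Ahctf1 by 1.16, Nup133 by 0.95 and Nup85 by 0.52. The small beta-propeller subunits did not rise: Nup43 was at -0.52, Nup37 at -0.44 and Sec13, which also coats transport vesicles, at -0.18, while Seh1l was at 0.39 (SE 0.13, edgeR adjusted p = 0.053). None of these 4 passed the test in either direction.

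Among the other parts, Nup50 (ENSMUSG00000016619, chr15:84923411-84942963), a basket protein that helps release import cargo, read 72.2, 73.4, 76.7 and 96.9 CPM in P28 WT and 187, 176, 154.5 and 163 CPM in E10.5-induced ME. All ME libraries were above all WT libraries, and Nup50 rose by 1.09 (SE 0.15, edgeR adjusted p = 0.000163). Ranbp2 (ENSMUSG00000003226, chr10:58446920-58494356), the SUMO ligase of the cytoplasmic filaments, read 79.0, 84.5, 82.8 and 83.9 CPM in P28 WT and 187, 209.8, 213 and 159 CPM in E10.5-induced ME. Ranbp2 rose by 1.22 (SE 0.20, edgeR adjusted p = 0.00139), again with no overlap. On the cytoplasmic side Nup214 rose by 1.23, Gle1, a factor of mRNA release, by 0.91, Nup88 by 0.42 and Rae1 by 0.42. The channel genes Nup98, Nup62 and Nup54 rose by 0.99, 0.82 and 0.66. The basket genes Nup153 and Tpr rose by 1.00 and 0.50. Ndc1 rose by 0.78 in the membrane ring, where Nup210 was at 1.07 with an SE of 0.46 and Pom121 at 0.52 with an SE of 0.29. Aaas was at 0.48 and Ranbp1 at -0.20, both without a call.

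Leaving out P28 WT library 1 lowered the count from 19 to 11, and leaving out P28 WT library 2 lowered it to 12. With only the groups compared fitted 25 genes were called in either direction, and 26 with limma voom. Nup188, Nup210, Pom121, Nup37, Nup43 and Seh1l were among the called genes in both. Of these, Nup37 and Nup43 were lower in ME, with means of 85.0 and 29.6 CPM against 115 and 42.6 CPM in P28 WT. Nup37 was also called with DESeq2 and with plain totals. The split by part of the pore and the 0 that fell thus depended on the fit. Tpr was not called when any of the 8 libraries was left out in turn, with edgeR adjusted p values from 0.0655 to 0.173, and Rae1 was not called in 5 of them.

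**Figure D1:**
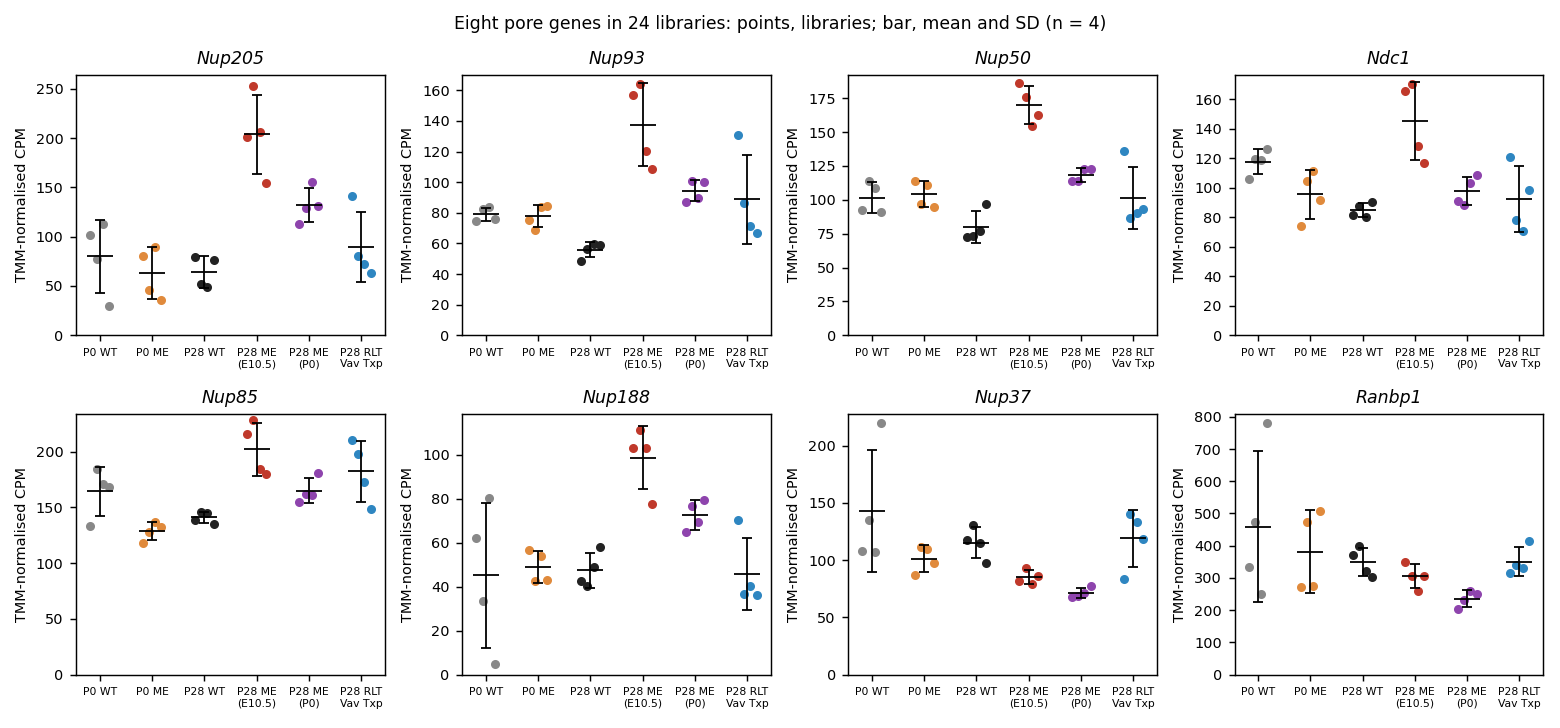
TMM-normalised CPM (vertical axes, from 0) of 8 pore genes in the 6 groups on the horizontal axes; points are libraries, bars the mean and SD (n = 4). In E10.5-induced ME at P28, Nup205 lies at 155 to 253 CPM and Nup93 at 108.5 to 164 CPM, above every P28 WT library, while Nup37 and Ranbp1 do not.

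At P0, E10.5-induced ME was compared with WT to ask whether the pore genes differed in newborn liver. None of the 29 genes was called (0.642% of all genes tested were), nor by DESeq2 or limma voom, and 5 had an unadjusted p under 0.05, as did 3251 of the 23059 genes. The median log2 fold change of the 29 was -0.02, against -0.01 for all genes tested. This contrast also chose Nup205, so nothing is read from the count. Nup205 read 102, 76.9, 113 and 29.6 CPM in P0 WT and 80.1, 46.1, 90.0 and 35.4 CPM in P0 ME. The groups overlapped over most of their range, and the log2 fold change was -0.35 (SE 0.33). The 5 genes with a low unadjusted p were Ranbp2 at 0.51 and, below 0, Nup43 at -0.66, Nup37 at -0.49, Aaas at -0.43 and Nup85 at -0.35. Their edgeR adjusted p values lay between 0.21 and 0.33. The 9 neutrophil markers all lay higher in P0 ME, with a median of 0.98 and none called, and their part in these values was not tested. Leaving out P0 WT library 1, which held 11040 CPM of mast cell and basophil markers, gave 2 called genes.

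**Figure D2:**
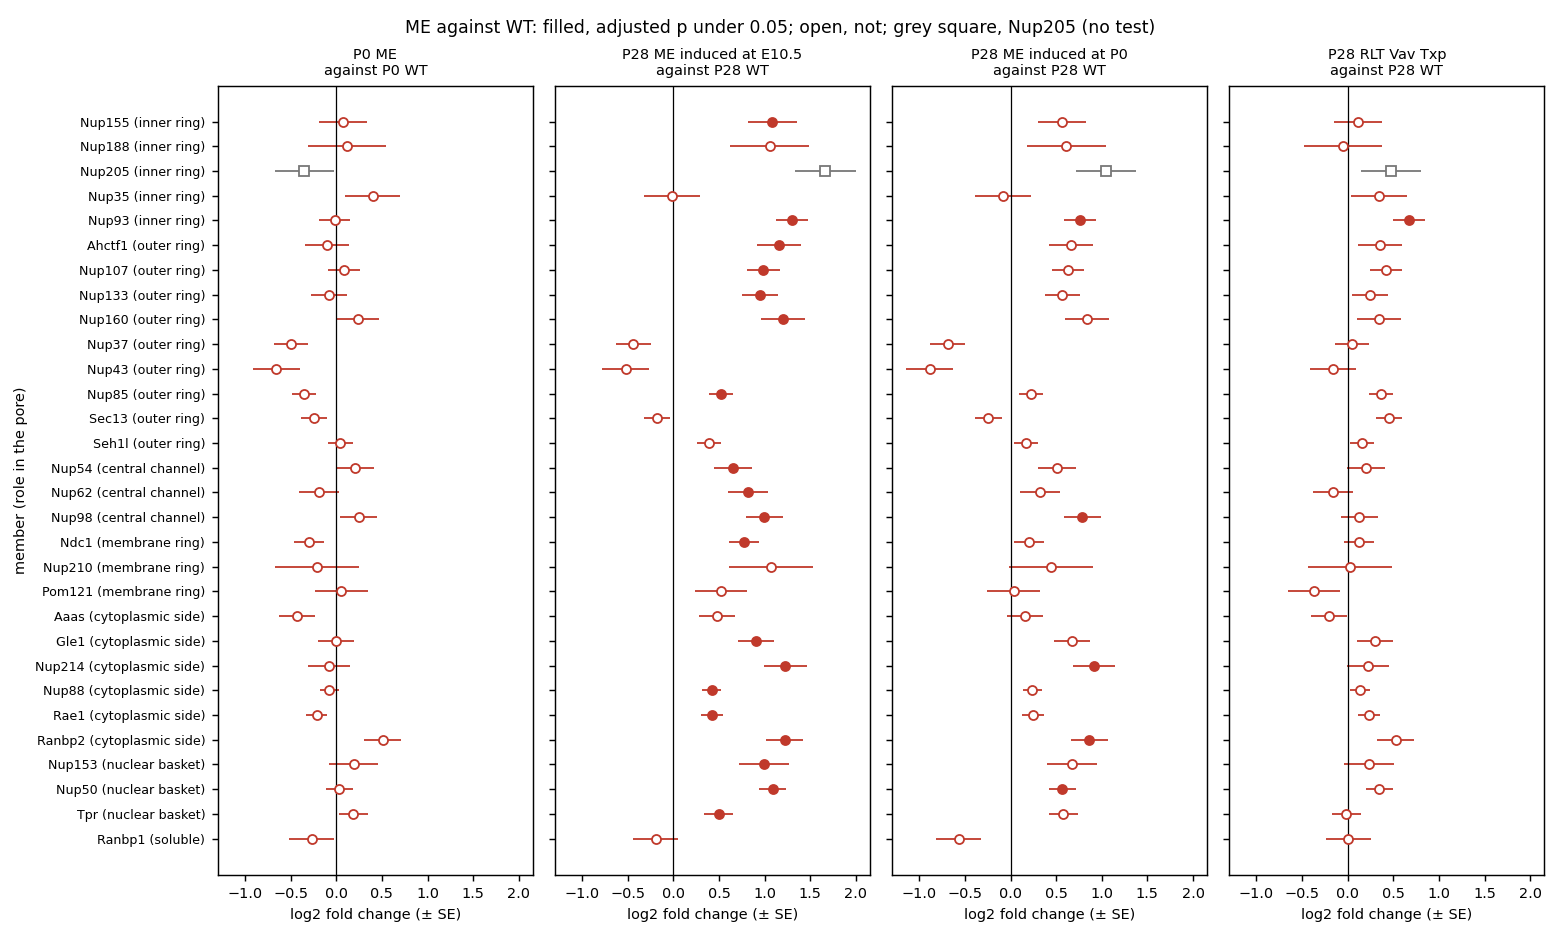
Log2 fold change against WT of the same age (horizontal axis, bar = SE from the edgeR model) for the 30 pore genes, ordered by their place in the pore, in 4 comparisons. At P28, E10.5-induced ME has 19 filled (called) points, P0-induced ME has 5 and the RLT Vav Txp group has 1, and P0 ME has 0.

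The ME effect at P28 minus the ME effect at P0 tests the difference between the ages directly, and it also is the contrast that chose Nup205. Of the other 29 genes 4 were called higher, where 0.468% of all genes were, and nothing is read from that share. Nup93, with P0 levels of 74.9, 82.2, 83.5 and 75.8 CPM in WT and 75.5, 69.0, 83.7 and 84.2 CPM in ME, had a difference of 1.32 (SE 0.24, edgeR adjusted p = 0.017). Its P0 groups overlapped fully. Nup50 read 92.8, 114, 108 and 91.0 CPM in P0 WT and 114, 96.9, 111 and 94.8 CPM in P0 ME, and its difference was 1.05 (SE 0.21, edgeR adjusted p = 0.0224).

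Ndc1 (ENSMUSG00000028614, chr4:107367784-107416346), which anchors the pore in the membrane, read 106, 119, 119 and 126 CPM in P0 WT and 74.2, 104, 112 and 91.6 CPM in P0 ME. At P28 Ndc1 read 81.3, 87.6, 80.2 and 90.2 CPM in WT and 165, 170.1, 128 and 117 CPM in E10.5-induced ME, which gave a difference of 1.08 (SE 0.23, edgeR adjusted p = 0.0321). The outer-ring gene Nup85 (ENSMUSG00000020739, chr11:115564434-115583985) read 134, 184.5, 171 and 168 CPM in P0 WT and 118, 128, 137 and 132 CPM in P0 ME. At P28 it read 139, 146, 145 and 135.5 CPM in WT and 216, 228, 185 and 179.9 CPM in E10.5-induced ME. Its difference was 0.87 (SE 0.18, edgeR adjusted p = 0.0311), and for Ndc1 and Nup85 the P0 difference was below 0 and the P28 difference above it. Of the 25 genes not called, 24 had a positive difference, from 0.06 for Nup37 and Sec13 to 1.31 for Nup214 (edgeR adjusted p = 0.0515), and Nup35 was at -0.41. Nup205 was at 2.02 (SE 0.46), without a test. These calls depended on single libraries: 0 genes were called without library 1 or 2 of E10.5-induced ME at P28, 1 without library 2 of P0 WT, library 4 of P0 ME or library 1 or 2 of P28 WT, 2 without library 3 of P0 WT, library 2 of P0 ME or library 3 of P28 WT, and 18 without library 4 of P0 WT. With the 6 P0 libraries numbered 2 to 4 left out, a choice made after seeing the data, each P0 group held 1 library, assumed to vary like the other groups, and 0 were called. The differences were then 1.29 for Nup93, 1.29 for Ndc1, 0.80 for Nup50 and 0.70 for Nup85.

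ME induced at birth was compared with the same P28 WT libraries, so its values share those controls with the comparison above. Here 5 of the 29 genes rose, where 0.494% of all genes tested did, and the median over the 29 was 0.51, against -0.09 for all genes tested. Expressed genes had medians of -0.31 (under 2 kb) to 0.42 (6 kb and over), and 0.126% to 3.14% of them rose. The P28 WT libraries are in the contrasts that chose Nup205, so nothing is read from the count or the median of the 29. Nup93 read 86.9, 100.5, 90.0 and 99.9 CPM and rose by 0.76 (SE 0.17, edgeR adjusted p = 0.0379). Ranbp2 read 122, 148, 173 and 158 CPM and rose by 0.86 (SE 0.20, edgeR adjusted p = 0.0389). Both genes lay above every P28 WT library in all 4 libraries. Nup214, which docks mRNA export factors, read 35.4, 36.5, 40.5 and 57.8 CPM in P28 WT and 77.0, 74.9, 85.8 and 84.2 CPM after induction at P0. Nup214 rose by 0.92 (SE 0.23, edgeR adjusted p = 0.0456). Nup50 read 114, 114, 123 and 123 CPM and rose by 0.57 (SE 0.15, edgeR adjusted p = 0.0476), and Nup98 rose by 0.79 (SE 0.20, edgeR adjusted p = 0.0488).

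Nup205 read 113, 129, 155 and 131 CPM after induction at P0, above all P28 WT libraries, with a log2 fold change of 1.04 (SE 0.33). The 24 other genes ranged from -0.88 for Nup43 to 0.84 for Nup160 and were not called. The 5 calls had edgeR adjusted p values of 0.0379 to 0.0488, and 0 genes were called when any single library of P0-induced ME, or P28 WT library 1, 2 or 3, was left out. With only these groups fitted 18 genes were called in either direction, and 18 with limma voom. Both held Nup37, Nup43 and Ranbp1, whose means were lower than in P28 WT.

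The times of induction were compared directly at P28. None of the 29 genes was called, where 0.0477% of all genes tested were, by DESeq2 also 0, and 5 had an unadjusted p under 0.05. The share of all genes under that p is not given here, so nothing is read from the 5. The log2 fold changes of P0 against E10.5 induction were below 0 for 28 of the 29 genes, with a median of -0.36 against -0.02 for all genes tested. Tpr, at 0.08, was the exception. The E10.5-induced libraries are also in the contrasts that chose Nup205, so nothing is read from that shared direction. Nup93 at -0.54 (SE 0.17), Nup50 at -0.52 (SE 0.15), Ndc1 at -0.57 (SE 0.16), Nup62 at -0.49 and Nup85 at -0.29 were the 5 genes with a low unadjusted p. Nup205 was at -0.62 (SE 0.33), and the groups overlapped only where the highest P0-induced library (155 CPM) met the lowest E10.5-induced one (155 CPM). With only these groups fitted 9 genes were called, and limma voom called 19.

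Set against P28 WT, the RLT Vav Txp libraries showed 1 called pore gene. Nup93 rose, alone among the 29 genes, where 2.64% of all genes tested were called higher. A count of 1 in 29 is near that share, so nothing is read from it about the set. It read 131, 86.4, 71.7 and 66.6 CPM, with every library above the P28 WT libraries, and rose by 0.67 (SE 0.17, edgeR adjusted p = 0.0226). Without RLT Vav Txp library 1, or without P28 WT library 1 or 2, Nup93 was not called. The median log2 fold change of the 29 genes was 0.20, and Nup205, at 141, 80.4, 72.0 and 62.8 CPM, had 0.47 (SE 0.33). Library 1 of this group was high across the pore genes, with a sum of 3991 CPM where the other 3 libraries were at 2899 to 3109 CPM, and all 10 macrophage markers were called higher in the group. The part of those cells in these values was not tested.

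Compared with E10.5-induced ME at P28, which shares its time of induction, the RLT Vav Txp group was lower for most of the pore. Of the 29 genes other than Nup205, 16 fell, where 9.38% of all genes tested did, and 1 rose, where 8.5% did. Their median log2 fold change was -0.66, against 0.12 for all genes tested. Expressed genes with transcripts under 2 kb, of 2 to 4 kb, of 4 to 6 kb and longer had medians of 0.33, -0.19, -0.40 and -0.48. Of these, 4.92%, 19.6%, 28.5% and 29.9% fell. The E10.5-induced libraries are in the contrasts that chose Nup205, so nothing is read from the counts or the median of the 29. Nup50 read 136, 86.7, 90.5 and 93.4 CPM in the RLT Vav Txp group, below each E10.5-induced library, and fell by 0.74 (SE 0.15, edgeR adjusted p = 0.00136). Nup62 (ENSMUSG00000109511, chr7:44816088-44830812) read 292, 285, 290.3 and 230.0 CPM in E10.5-induced ME and 229, 121, 96.6 and 111 CPM in the RLT Vav Txp group. Nup62 fell by 0.98 (SE 0.22, edgeR adjusted p = 0.00383). It overlaps Atf5 and Il4i1, and reads of overlapping genes may have been shared. Nup214 read 108, 107, 114 and 70.2 CPM in E10.5-induced ME and 66.2, 38.4, 45.8 and 48.0 CPM in the RLT Vav Txp group, and fell by 1.01 (SE 0.23, edgeR adjusted p = 0.00426).

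Sec13 (ENSMUSG00000030298, chr6:113728062-113740743) went the other way. It read 118, 121.5, 114 and 108 CPM in E10.5-induced ME and 156, 204, 175 and 179.8 CPM in the RLT Vav Txp group, without overlap. Sec13 rose by 0.63 (SE 0.15, edgeR adjusted p = 0.00472). The other 13 genes that fell did so by 0.51 for Tpr to 0.97 for Nup155: Nup98, Ndc1, Nup93, Nup155, Nup133, Nup160, Ranbp2, Aaas, Ahctf1, Tpr, Nup107, Pom121 and Gle1. Nup205 was at -1.19 (SE 0.33). The calls dropped from 17, Sec13 included, to 6, 7 or 9 genes without RLT Vav Txp library 4, 3 or 2, and to 7 without library 2 of E10.5-induced ME. Macrophage markers summed to 50.9 to 80.0 CPM in E10.5-induced ME and LSK markers to 5287 to 6045 CPM, and their part in the difference was not tested.

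**Figure D3:**
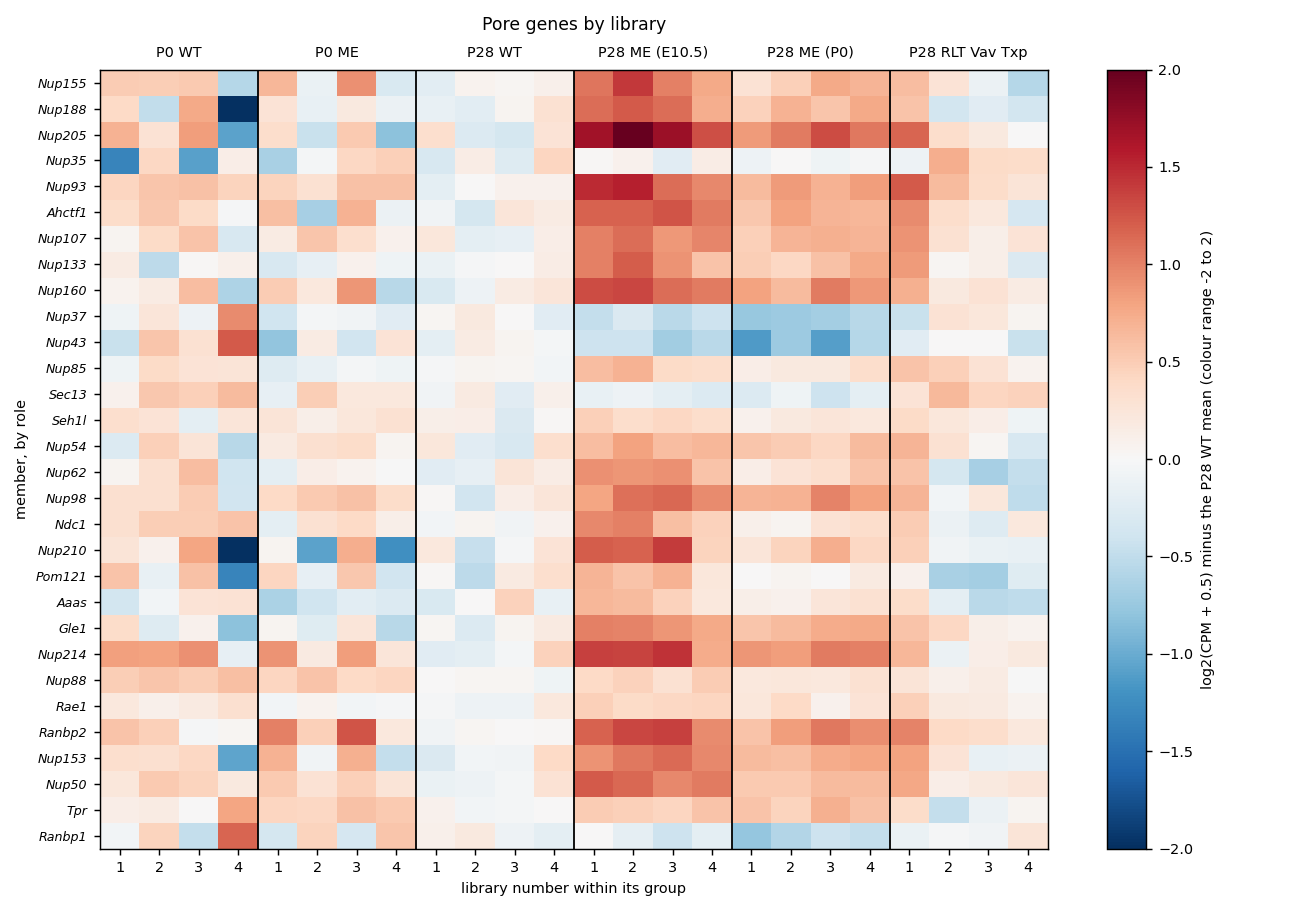
Log2 level of each pore gene (rows, by place in the pore) in each of the 24 libraries (columns), as log2(CPM + 0.5) minus the P28 WT mean; red is higher, blue lower, with colours limited to -2 to 2. The 4 E10.5-induced libraries at P28 are red for most genes, RLT Vav Txp library 1 stands apart from its group, and P0 WT library 4 is blue for Nup188, which read 4.96 CPM there, and red for Ranbp1 at 780.4 CPM.

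Age and tissue were compared within genotype. In WT, Nup88 was the only pore gene of the 29 that passed the test, and it fell at P28, where 4.56% of all genes tested fell. Its single call is near that share, so nothing is read from the count about the set. Nup88 (ENSMUSG00000040667, chr11:70943058-70969973), a cytoplasmic-side protein that holds Nup214, read 127, 133, 126 and 138 CPM at P0 and 91.1, 92.5, 92.5 and 84.9 CPM at P28. The ages did not overlap, and Nup88 fell by 0.54 (SE 0.11, edgeR adjusted p = 0.0024). It overlaps Rabep1 on the other strand. Of the 29 genes 25 were lower at P28, with a median of -0.21 against -0.07 for all genes tested, and Nup205 was at -0.32 (SE 0.33). The WT groups are in the contrasts that chose Nup205, so nothing is read from that shared direction. In the same comparison 8 of 10 macrophage, 8 of 9 erythroid, 7 of 9 neutrophil and 6 of 10 hepatocyte markers fell and 5 of 12 LSK markers rose, and their part in the Nup88 value was not tested. With the P0 libraries numbered 2 to 4 left out, Nup88 was at -0.43 and not called (edgeR adjusted p = 0.183), P0 WT then held 1 library, and Nup35 was called higher. The count went from 1 to 3 without P0 WT library 1 and to 2 without P0 WT library 4 or P28 WT library 4.

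In ME induced at E10.5, 13 of the 29 genes other than Nup205 rose from P0 to P28 and 0 fell, where 9.79% of all genes tested rose. The median of the 29 was 0.65, against -0.18 for all genes tested. Expressed genes with transcripts under 2 kb, of 2 to 4 kb, of 4 to 6 kb and longer had medians of -0.22, 0.21, 0.34 and 0.34. Of these, 8.66%, 23.5%, 26.6% and 22.1% rose. Both groups are in the contrasts that chose Nup205, so nothing is read from the count or the median of the 29. Nup133 (ENSMUSG00000039509, chr8:123897123-123949265), an outer-ring subunit that senses curved membrane, read 47.6, 52.8, 63.1 and 56.1 CPM in P0 ME and 120.2, 139, 111 and 88.8 CPM in P28 ME. Nup133 rose by 1.06 (SE 0.20, edgeR adjusted p = 0.000671). Gle1 (ENSMUSG00000019715, chr2:29935426-29960371) read 72.1, 58.5, 81.9 and 46.8 CPM in P0 ME and 139, 138, 129 and 117 CPM in P28 ME, and rose by 1.01 (SE 0.20, edgeR adjusted p = 0.00107). Nup85 rose by 0.65 (SE 0.13, edgeR adjusted p = 0.00132) and Nup50 by 0.71 (SE 0.15, edgeR adjusted p = 0.00155). In these 4 genes every P28 library was above every P0 library. Aaas (0.87), Ahctf1 (0.94), Nup160 (0.86), Nup62 (0.83), Nup93 (0.82), Nup107 (0.70), Nup214 (0.67), Ndc1 (0.60) and Rae1 (0.44) also rose. Nup205 was at 1.70 (SE 0.33). With the 6 P0 libraries numbered 2 to 4 left out, 5 genes were called in place of 13 (Nup85, Nup133, Ndc1, Gle1 and Aaas), and P0 ME then held 1 library. In this comparison all 10 macrophage and all 9 neutrophil markers fell, as did 7 of 9 erythroid and 9 of 10 hepatocyte markers, and their part in the pore gene values was not tested.

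Transcript length moved with several of these differences, over the expressed genes as well as over the pore genes. The slopes of the P28 libraries on length were -0.211 to 0.02 in WT and -0.206 to 0.111 in RLT Vav Txp. They were 0.165 to 0.282 in E10.5-induced ME and 0.182 to 0.205 in P0-induced ME. Over 10245 expressed genes, the log2 fold change of E10.5-induced ME against WT at P28 rose by 0.32 for each doubling of the longest annotated transcript (r = 0.548 across genes, which are not independent), and over the 30 pore genes by 0.49 (r = 0.775). Of the 1371 genes of 6 kb and over 411 were called higher, and of the 8 pore genes of that length other than Nup205 7 rose. At 4 to 6 kb the shares were 26.5% of 2339 genes and 5 of 7 pore genes, at 2 to 4 kb 15.8% of 4157 genes and 6 of 9, and under 2 kb 2.73% of 2378 genes and 1 of 5 (Rae1). Ranbp1, Nup37, Sec13 and Nup43, the pore genes under 2 kb that did not rise, have transcripts of 1.08, 1.45, 1.60 and 1.74 kb, and Ranbp2, the longest, has 9.61 kb. Over the 10245 genes r was 0.615 for P0-induced ME against WT and -0.44 for RLT Vav Txp against E10.5-induced ME. It was 0.365 for ME at P0, 0.312 for ME between ages and 0.324 for the difference of the ME effects. For RLT Vav Txp against WT, WT between ages and the times of induction it was -0.001, 0.09 and -0.079.

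A fit with offsets for GC content and transcript length took the slope away from the 10245 expressed genes (r = 0.036). It left 18 of the 29 pore genes called higher in E10.5-induced ME at P28, 17 of the 19 and Seh1l. The median of the 29 was 0.55 in place of 0.82, and that of the 10245 genes 0.15 in place of 0.19. Nup93 was at 1.26, Ranbp2 at 1.13, Nup107 at 0.94 and Nup50 at 0.78. Nup37 moved from -0.44 to 0.06 and Ranbp1 from -0.20 to 0.38, so their direction depended on this setting. Nup133 at 0.55 and Tpr at 0.17 were no longer called. For P0-induced ME against WT the same offsets left 2 calls, Nup93 at 0.71 and Ranbp2 at 0.72, in place of 5. In the RLT Vav Txp group set against E10.5-induced ME, the offsets gave 12 lower calls in place of 16, and for the difference of the ME effects 9 in place of 4.

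**Figure D4:**
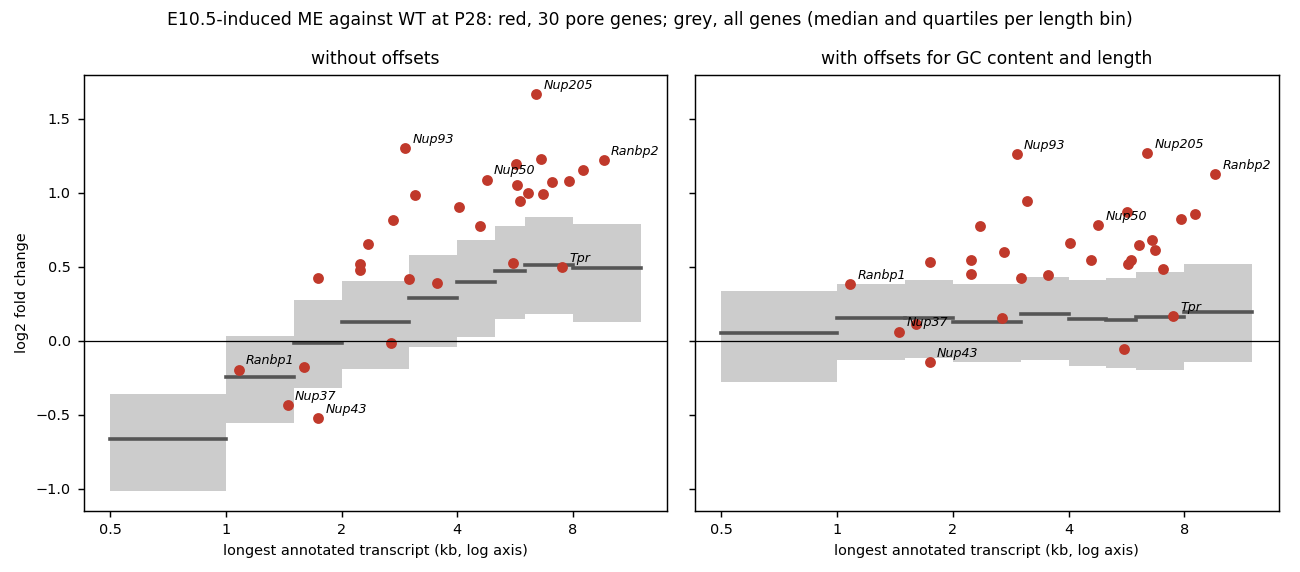
Log2 fold change of E10.5-induced ME against WT at P28 (vertical axis) by longest annotated transcript (horizontal axis, kb, log scale), without and with offsets for GC content and length. Red points are the 30 pore genes. Grey bands are the median and quartiles per length bin of genes with an average log2 CPM over 3, named all genes in the figure title. Without offsets the medians of these genes climb with length, and with offsets they are level. With offsets the pore genes other than Nup205 have a median of 0.55.

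Genes that work with the pore were counted from lists chosen by function. In E10.5-induced ME against WT at P28, 12 of 17 import receptor genes rose and 0 fell, with a median of 0.81. Kpna2, an importin alpha, rose by 1.12 (SE 0.18, edgeR adjusted p = 0.00122) and Ipo5 by 0.95 (SE 0.20, edgeR adjusted p = 0.00501). Export receptors rose in 7 of 8 cases, led by Xpo5, the carrier of microRNA precursors, at 1.16 (SE 0.20, edgeR adjusted p = 0.00206) and Cse1l, which returns importin alpha, at 0.91. In the Ran cycle 4 of 7 tested genes rose, among them the exchange factor Rcc1 at 1.10 and the activating protein Rangap1 at 1.02. In the mRNA export list 4 of 20 rose, within the range of those shares of expressed genes, and 1 fell. Mcm3ap at 1.30 and Thoc2 at 0.65 had the lowest adjusted p. Of 16 lamina and nuclear envelope genes 5 rose, such as Tmpo at 0.80 and Lmnb2 at 0.91. Of 4 further nucleoporin-family genes that passed the filter 0 were called.

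Genes of S phase and mitosis were counted beside the pore genes. Of 22 such genes 16 rose in E10.5-induced ME at P28 and 0 fell, where 7.82% of all genes tested rose. This contrast chose Nup205, so nothing is read from that count. The 22 genes had a median of 0.92, with Rrm1 at 1.18 and Plk1 at 1.25. Their summed level was 3765 to 4761 CPM in P28 WT, 6478 to 8894 CPM in E10.5-induced ME, 4539 to 5896 CPM in P0-induced ME and 3724 to 4419 CPM in RLT Vav Txp libraries 2 to 4, with 6612 CPM in library 1. The pore genes of P0-induced ME summed to 3313 to 3780 CPM, above all P28 WT libraries. In P0-induced ME against WT none of the import, export, Ran cycle, mRNA export, lamina or S phase genes was called. Their medians were 0.66 for export receptors (7 of 8 with an unadjusted p under 0.05), 0.59 for the Ran cycle (5 of 7), 0.52 for import receptors (10 of 17) and 0.36 for S phase and mitosis (7 of 22), beside 0.51 for the 29 pore genes (19 of 29), and a difference between these lists was not tested. The share of all genes with an unadjusted p under 0.05 is not given beside these counts, so nothing is read from them. Against E10.5-induced ME, the RLT Vav Txp group was lower for 15 of the 22 and for 10 of 17 import receptor genes. There 9.38% of all genes tested were lower, and 4.92% (under 2 kb) to 29.9% (6 kb and over) of expressed genes. For the difference of the ME effects 6 of the 22 were called higher, where 0.468% of all genes tested were. By length, 0.463% to 1.35% of expressed genes were. Both contrasts hold libraries that chose Nup205, so nothing is read from these counts. Whether the pore genes move apart from cell division was not tested.

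**Figure D5:**
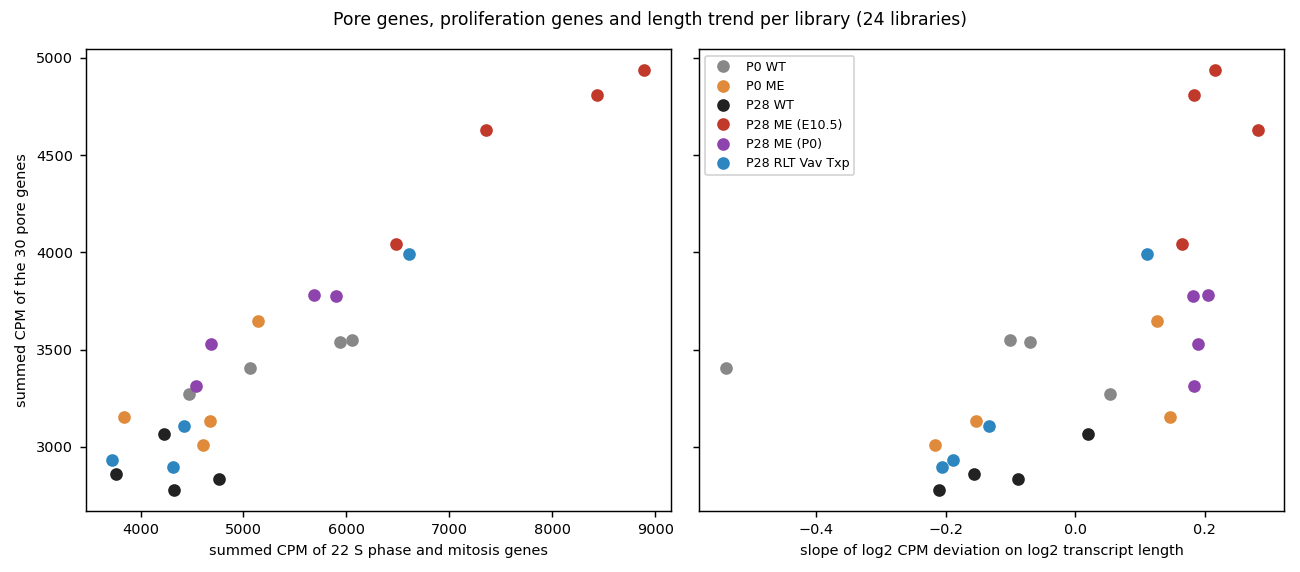
Summed CPM of the 30 pore genes (vertical axis) in the 24 libraries, against the summed CPM of 22 S phase and mitosis genes (left) and against the slope of each library's log2 deviation on log2 transcript length (right); points are libraries, coloured by group. The 4 E10.5-induced libraries at P28 lie highest, at 4042 to 4936 CPM, with RLT Vav Txp library 1 next at 3991 CPM, and P0 WT library 4 lies far left in the right panel at -0.54.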

How the data were processed

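The authors deposited raw counts of reads per gene for 24 RNA-seq libraries of sorted mouse progenitors, 4 in each of 6 groups. The submitters' processing notes name STAR 2.7.9a, Subread with featureCounts 2.0.3 and the build GRCm38, with no roles given; the annotation release, the strand setting and the handling of reads with several matches are not given in the sources used here. The table held 55774 rows and 55487 distinct Ensembl IDs, and 287 repeat rows were dropped. The human transgene was not analysed here. Library totals were 31233688 to 89774511 counts.

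Genes passing edgeR's filterByExpr (minimum count 10; 23059 genes) were fitted in edgeR 4.0.16 (R 4.3.3) with TMM scaling and the robust quasi-likelihood F test over all 6 groups (18 residual degrees of freedom), and p-values were adjusted by Benjamini-Hochberg over all genes tested, with a threshold of 0.05. Pore genes were matched by symbol, and coordinates and lengths are from GENCODE M21 (GRCm38). The members and gene lists were chosen with earlier results of these data known. All 30 members are named; values in every library are given for Nup205 and for up to 4 called members of lowest adjusted p in each comparison, and other genes are named only as the 2 called genes of a list with the lowest adjusted p. The scripts were tested on simulated data. Alternatives were RLE scaling and plain totals, DESeq2 1.42.0, limma 3.58.1 voom with quality weights, other count filters, offsets for GC content and length (splines with 5 degrees of freedom), a replicate block, fits of only the groups compared, and fits without single libraries. Protein sequences were not used here.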

Additional observations from a re-analysis of the deposited data

Results flagged for a closer look

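Pore gene levels were tested in each group of 4 libraries for a library far from the other 3 (Dixon's 95% rule), and 11 of 180 tests passed, where chance gives about 1 in 20. In P0 WT, library 4 was the lowest for Nup153 (32.5 CPM), Nup155 (34.4 CPM) and Nup214 (37.2 CPM) and the highest for Tpr (329.0 CPM). In the RLT Vav Txp group, library 1 was the highest for Nup188 (70.1 CPM), Nup210 (301.0 CPM) and Nup50 (136 CPM). In E10.5-induced ME at P28, library 4 was the lowest for Nup214 (70.2 CPM) and Nup62 (230.0 CPM). Nup107 was lowest in library 1 of P0-induced ME (102 CPM), and Nup88 was highest in library 2 of P0 ME (135 CPM).

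By edgeR's test of the interaction, 4 genes were called for the ME effect at P28 minus that at P0. The differences were 1.32 for Nup93, 0.869 for Nup85, 1.08 for Ndc1 and 1.05 for Nup50. This contrast chose Nup205, so nothing is read from the number of calls. Without library 1 or 2 of E10.5-induced ME at P28, 0 of the 4 were called.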

How the results depend on the processing

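Of 1154 values of called pore genes under alternatives, 919 stayed past the threshold in the same direction, 235 lost the call and 0 turned direction. The counts leave Nup205 out and cover calls in either direction. For E10.5-induced ME against WT at P28, the 19 genes kept their direction in every alternative, and between 13 (no low-count filter) and 19 of them were called when no single library was left out. With further genes added, in both directions, the count was 25 with only these groups and 26 with voom. The median of all genes was -0.10 with TMM, -0.18 with RLE and -0.23 with plain totals, and that of the 30 pore genes 0.86, 0.78 and 0.73.

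For P0-induced ME against WT, 5 became 11 with DESeq2, 18 with voom, 3 with no filter, 2 with the offsets, 10 without both P0 libraries numbered 1 and 18 with only these groups. For the RLT Vav Txp group against WT, 1 became 0 with plain totals, 3 with the offsets, 2 without both P0 libraries numbered 1 and 0 with only these groups. For the times of induction, 0 became 19 with voom and 9 with only these groups. For WT between ages, 1 became 2 with DESeq2, 5 with the offsets, 4 without both P0 libraries numbered 1 and 0 with only these groups, and with the P0 libraries numbered 2 to 4 left out it was 1, Nup35 in place of Nup88. For ME between ages, 13 became 5 with the P0 libraries numbered 2 to 4 left out, chosen after seeing the data. For the difference of the ME effects, 4 became 2 with RLE, 1 with plain totals, 9 with DESeq2, 8 with voom, 1 with no filter, 9 with the offsets, 2 with only these groups and 0 with the P0 libraries numbered 2 to 4 left out. The cause was not tested.

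Leaving out 1 library at a time gave counts of 0 to 2 for ME against WT at P0, 11 to 18 for E10.5-induced ME against WT, 0 to 6 for P0-induced ME against WT, 0 to 1 for the RLT Vav Txp group against WT, 0 to 0 for the times of induction, 6 to 22 for the RLT Vav Txp group against E10.5-induced ME, 1 to 3 for WT between ages, 11 to 17 for ME between ages and 0 to 18 for the difference of the ME effects.

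The labels number the libraries of 5 groups, 20 in all. Same-numbered libraries deviated together with a correlation over 0.1 in 14 of 40 pairs (range -0.39 to 0.66), so the numbers were not taken to pair them. Between P0 WT and P0 ME the correlations were 0.66, 0.05, 0.37 and 0.46 for numbers 1 to 4, and with a replicate block 0 pore genes were called there. In 0 of 10 pairs of groups did every library correlate best with its own number. With a replicate block on the 20 libraries the count was 11 for P0-induced ME against WT (8 with no replicate block), 3 for WT between ages (2 with no replicate block) and 8 for the difference of the ME effects (9 with no replicate block).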
